A study of Mus musculus with 4 samples.

Results

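The 10 genes described here encode feedback regulators and targets of the ERK pathway: the dual-specificity phosphatase genes Dusp1, Dusp4, Dusp5 and Dusp6, the Sprouty genes Spry1, Spry2 and Spry4, the Sprouty-related genes Spred1 and Spred2, and the transcription factor gene Etv4. They were chosen by name, with earlier results of these data known, and all 10 were found among the 21878 rows of the deposited tables. Growth factor receptors signal through Ras, Raf and MEK to the kinase ERK, and ERK activity raises the transcription of genes whose products shut the pathway down. The phosphatases remove phosphate from ERK and related kinases, Sprouty and Spred proteins act upstream at the level of receptor adaptors, Ras and Raf, and Etv4 is an ETS family factor often read as a transcriptional output of growth factor signalling. In the liver this pathway is known for its part in the entry of hepatocytes into the cell cycle and in duct and progenitor cell growth.

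RNA was sequenced from progenitor-like cells of the mouse liver, a growing culture state reached in transition and expansion media. The comparison is between cells grown from hepatocytes (HepLPC, n = 2 libraries) and cells grown from the non-parenchymal fraction (NPC_LPC, n = 2 libraries), and addresses how the progenitor-like cells of each origin differ. Per the labels all mice were C57BL/6 and 6 to 8 weeks old, and all cells went through the same kinds of media. The protocol lists tdTomato mice given AAV8-TBG-Cre, a virus that drives Cre from a hepatocyte promoter, for the hepatocytes, and AlbCreERT/R26GFP mice, whose inducible Cre is driven from the albumin promoter, for the non-parenchymal cells. If the mice were used in that order, line and virus follow the origin and cannot be told apart from it. The cell type label of HepLPC names non-parenchymal cells as well as hepatocytes, and libraries were therefore grouped by title. Nothing in the labels says that libraries of a group came from separate mice or cultures, so p-values measure only the spread between these libraries.

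Total counts were 17575998 to 20625957 per library, and levels are given as CPM, read counts divided by the library's size after TMM scaling. Values of a pair of libraries are given for replicate 1 first and replicate 2 second. Of the hepatocyte markers, Hnf4a was at 235 and 249 CPM in the HepLPC pair, against 27.4 and 49.8 CPM in the NPC_LPC pair, while Alb, the albumin gene, stayed at or below 2.28 CPM and Cyp2e1 had no count in any library. Markers of other liver cells were low or absent: 6 stellate and fibroblast genes summed to 3.21 to 15.6 CPM, and Pecam1, Stab2 and Lyve1 of endothelial cells and Ptprc, Adgre1 and Clec4f of leukocytes and macrophages had at most 5 counts in any library. The endothelial list of 5 genes summed to 5.97 to 7.16 CPM in HepLPC and 2.08 to 3.61 CPM in NPC_LPC, and the macrophage and leukocyte list of 5 genes to 15.2 to 24.9 and 21.4 to 81.6 CPM, most of it Cd68. The 5 biliary markers summed to 4671 and 2071 CPM in the HepLPC pair, against 9307 and 4575 CPM in the NPC_LPC pair. Spp1 made up most of the NPC_LPC sums, at 8939 and 4201 CPM, and was at 3024 and 904 CPM in the HepLPC pair. The biliary keratin genes went the other way without overlap, Krt19 at 1434 and 885 against 111 and 275 CPM and Krt7 at 103 and 165 against 1.43 and 17.2 CPM. Sox9 overlapped between the origins, at 109 and 115 against 256 and 81.5 CPM. Epcam also overlapped and was at most 1.75 CPM in any library. The 6 proliferation markers summed to 2157 and 1253 CPM in the HepLPC pair, against 784 and 1472 CPM in the NPC_LPC pair, so the libraries of a group differed in this measure.

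The stretches just before the start sites are shown for 4 genes with different patterns across the libraries. Dusp1 and Dusp5 had the smallest edgeR p of the 10 genes between the origins, Dusp6 overlapped between them, and Spred1 varied least across the 4 libraries. Each stretch is the 250 bases before the annotated start, 5′ to 3′ on the gene's own strand, from RefSeq on GRCm38.p6. Capitals mark matches, on either strand, to the cAMP response element TGACGTCA and its shorter core TGACG, the PEA3 motif of ETS factors AGGAAG, or the CArG box, the serum response factor motif.
Dusp1, chr17:26508473-26508722, minus strand: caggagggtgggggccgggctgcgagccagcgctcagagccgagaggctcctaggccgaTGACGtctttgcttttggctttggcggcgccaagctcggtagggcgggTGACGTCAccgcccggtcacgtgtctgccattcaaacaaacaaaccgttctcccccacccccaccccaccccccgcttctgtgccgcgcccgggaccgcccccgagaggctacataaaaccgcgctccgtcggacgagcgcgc
Dusp5, chr19:53528895-53529144, plus strand: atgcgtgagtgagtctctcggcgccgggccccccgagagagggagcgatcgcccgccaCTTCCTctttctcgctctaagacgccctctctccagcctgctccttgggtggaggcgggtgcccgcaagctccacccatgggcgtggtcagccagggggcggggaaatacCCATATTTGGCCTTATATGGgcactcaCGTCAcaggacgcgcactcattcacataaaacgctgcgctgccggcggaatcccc
Dusp6, chr10:99262981-99263230, plus strand: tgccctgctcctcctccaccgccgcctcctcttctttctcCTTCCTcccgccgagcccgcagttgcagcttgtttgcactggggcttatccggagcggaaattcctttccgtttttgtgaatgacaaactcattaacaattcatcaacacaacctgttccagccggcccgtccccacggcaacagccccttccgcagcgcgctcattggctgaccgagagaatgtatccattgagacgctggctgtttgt
Spred1, chr2:117120821-117121070, plus strand: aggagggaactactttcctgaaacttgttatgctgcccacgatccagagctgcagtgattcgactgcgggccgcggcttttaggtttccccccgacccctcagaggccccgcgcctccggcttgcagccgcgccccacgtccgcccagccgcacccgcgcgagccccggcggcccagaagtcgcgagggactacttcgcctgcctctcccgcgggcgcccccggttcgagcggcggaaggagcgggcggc

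The Dusp1 stretch held 1 full cAMP response element, 143 to 136 bases before the start, and a further match to the core 191 to 187 bases before it. The full element was present in 1.55% of the 32851 RefSeq promoter stretches of the same length, and the core, which lies within the full element, in 17.8%. The Dusp5 stretch held 2 CArG boxes that adjoin each other, CCATATTTGG and CCTTATATGG, from 82 to 63 bases before the start, a motif present in 1.47% of promoter stretches. It also held 1 core match and 1 PEA3 match. The Dusp6 and Spred2 stretches held 1 and 2 PEA3 matches, a motif found in 29.5% of promoters, and Spred2 held 1 core match. Spry1, Spry2 and Spred1 held no match to these motifs or to the others searched on both strands. Those others were the AP-1 motif TGANTCA (6.75% of promoters), the longer ETS motif CCGGAAG (6.91%) and TATAAA (12.4%). They also included the Capicua motif, in the forms TGAATGAA and TGAATGGA only (1.08% and 1.01%). None of the 7 stretches held one of those others as spelled here. Other forms of the Capicua motif were not searched, so these stretches may still hold one. The RefSeq table gave a stretch for 7 of the 10 genes, and Dusp4, Spry4 and Etv4 are named only. A match is a run of letters and not a measured binding site.

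Dusp1 and Dusp5 stood higher in HepLPC, Dusp4 lay lower there, and the 4 libraries lay close together for Spred1. None of the 10 genes passed the edgeR quasi-likelihood test between the origins after Benjamini-Hochberg adjustment over all 12332 tested genes, a test that called 0.430% of genes. At an unadjusted p under 0.05 it held 3 of the 10, Dusp1, Dusp5 and Etv4, all higher in HepLPC, where 10.4% of all tested genes were higher and 21.9% changed in either direction by that rule. DESeq2 called 2 of the 10, Dusp1 and Dusp5, both higher in HepLPC, where it called 5.35% of genes higher and 6.24% lower. Limma-voom called 0 of the 10 and 5 genes in all, with 4 of the 10 at an unadjusted p under 0.05, beside 22.2% of all genes by that rule. By fitted edgeR value 8 of the 10 were higher in HepLPC and 2 lower, with a median log2 fold change of 0.74 beside -0.0030 over all tested genes. The origins did not overlap in 6 of the 10, 4 higher and 2 lower in HepLPC. The same held for 56.4% of all tested genes, 27.9% higher and 28.6% lower, so the share among the 10 is near the background. The smallest p that an exact permutation test of 1 gene allows with these group sizes is 0.333.

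**Figure D1:**
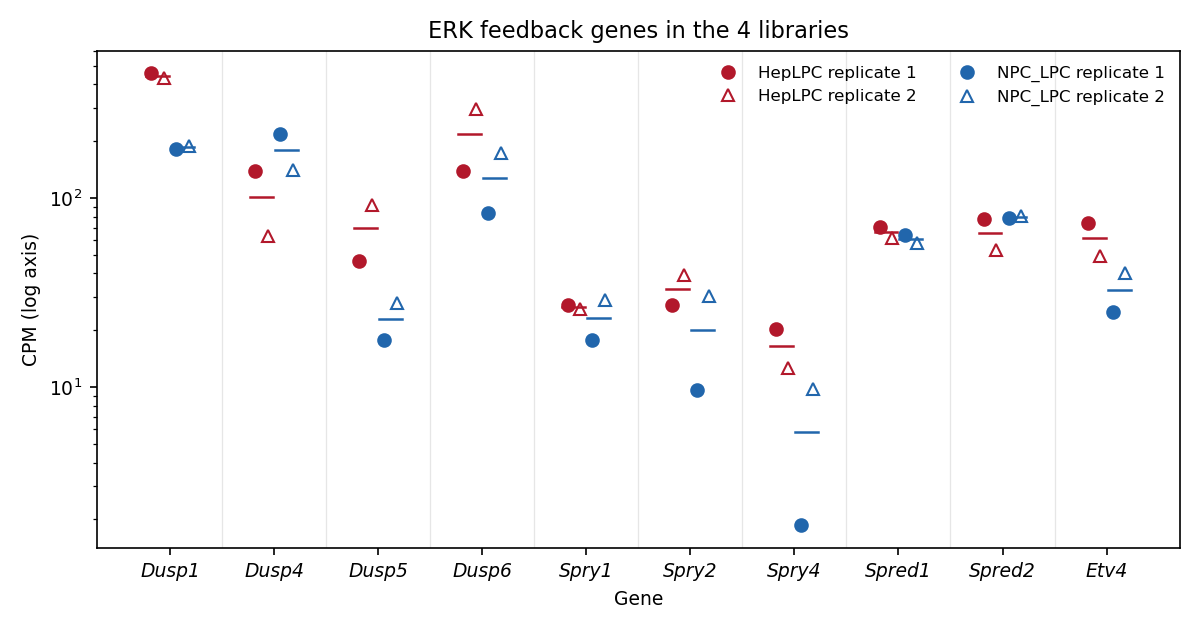
CPM (log axis) of the 10 genes in each library; red is HepLPC and blue NPC_LPC, circles are replicate 1 and triangles replicate 2, and short lines are group means. Dusp1 shows tight pairs that stand apart, at 430 and 457 against 183 and 188 CPM, while Spry4 has 1 low NPC_LPC library at 1.87 CPM.

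Dusp1 encodes MKP-1, a nuclear phosphatase of ERK, p38 and JNK and a classical immediate early gene (chromosome 17, 26505591 to 26508472, GRCm38). It was at 457 and 430 CPM in the HepLPC pair, against 183 and 188 CPM in the NPC_LPC pair. The groups did not overlap, and the libraries of each origin lay close together. Dusp1 was 2.39-fold higher in HepLPC (444 ± 19.6 against 186 ± 3.73 CPM, mean ± SD, n = 2 each), a log2 fold change of 1.26 (SE 0.23), with an adjusted p of 0.0794 by edgeR and 1.10e-04 by DESeq2. Its edgeR p ranked 296 among the 12332 tested genes. The 95% interval of the log2 fold change ran from 0.68 to 1.83.

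Dusp5 encodes a nuclear phosphatase specific for ERK that is itself induced by ERK signalling (chromosome 19, 53529145 to 53541809). It was at 46.5 and 92.5 CPM in the HepLPC pair, against 17.9 and 28.1 CPM in the NPC_LPC pair. The groups did not overlap, but the HepLPC libraries differed from each other 1.99-fold. The ratio of the means was 3.03, the largest of the 10 genes (log2 fold change 1.60 with SE 0.43, 95% interval 0.53 to 2.66), with an adjusted p of 0.127 by edgeR and 0.0089 by DESeq2. GENCODE M21 places a non-coding gene on the opposite strand at the 5′ end of Dusp5, and another such gene at Spry1. The strand setting of the counting is not given in the sources used here, so reads from such partners cannot be told apart.

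Dusp4 encodes MKP-2, a nuclear phosphatase of ERK and JNK (chromosome 8, 34807610 to 34819894). It was at 139 and 63.3 CPM in the HepLPC pair, against 217 and 141 CPM in the NPC_LPC pair. Both HepLPC libraries lay below both NPC_LPC libraries, but HepLPC replicate 1 came close to NPC_LPC replicate 2, at 139 against 141 CPM. The log2 fold change was -0.83 (SE 0.44, edgeR adjusted p = 0.328, 95% interval -1.91 to 0.26), and DESeq2 did not call the gene. The value was -1.49 without HepLPC replicate 1, -0.37 without HepLPC replicate 2, -0.46 without NPC_LPC replicate 1 and -1.11 without NPC_LPC replicate 2.

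Dusp6 encodes MKP-3, a cytoplasmic phosphatase specific for ERK and widely used as a readout of ERK activity (chromosome 10, 99263231 to 99267489). It was at 139 and 298 CPM in the HepLPC pair, against 83.5 and 174 CPM in the NPC_LPC pair. The groups overlapped, since NPC_LPC replicate 2 exceeded HepLPC replicate 1. The libraries of an origin differed 2.15-fold in HepLPC and 2.08-fold in NPC_LPC, more than the 1.70-fold between the group means. The log2 fold change was 0.76 (SE 0.50, edgeR adjusted p = 0.417, 95% interval -0.48 to 2.002). It was 1.23 and 0.11 without HepLPC replicates 1 and 2, and 0.35 and 1.39 without NPC_LPC replicates 1 and 2.

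As a group the 4 phosphatase genes summed to 781 and 883 CPM in the HepLPC pair, against 502 and 531 CPM in the NPC_LPC pair. The mix varied between libraries. The ratio of Dusp4 to Dusp6 CPM was 0.998 and 0.212 in HepLPC replicates 1 and 2 and 2.60 and 0.809 in those of NPC_LPC, a ratio read only from library to library since CPM takes no account of length. In both origins the library with more Dusp6 had less Dusp4. These are bulk libraries, in which fewer cells with a transcript and less of it per cell cannot be told apart.

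The genes most like Dusp6 over the 4 libraries were found by the root mean square difference of log2 CPM centred per gene, among 9114 tested genes with a mean of at least 10 CPM. They were H2afx, Csrp2, Rdh10, 2310011J03Rik and Orai1, with differences of 0.18 to 0.20. H2afx encodes the histone variant phosphorylated at DNA breaks, Rdh10 a retinol dehydrogenase and Orai1 a calcium channel of the plasma membrane. Rdh10 was at 231 and 534 CPM in the HepLPC pair, against 104 and 264 CPM in the NPC_LPC pair. With 4 libraries this likeness is a description only.

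**Figure D2:**
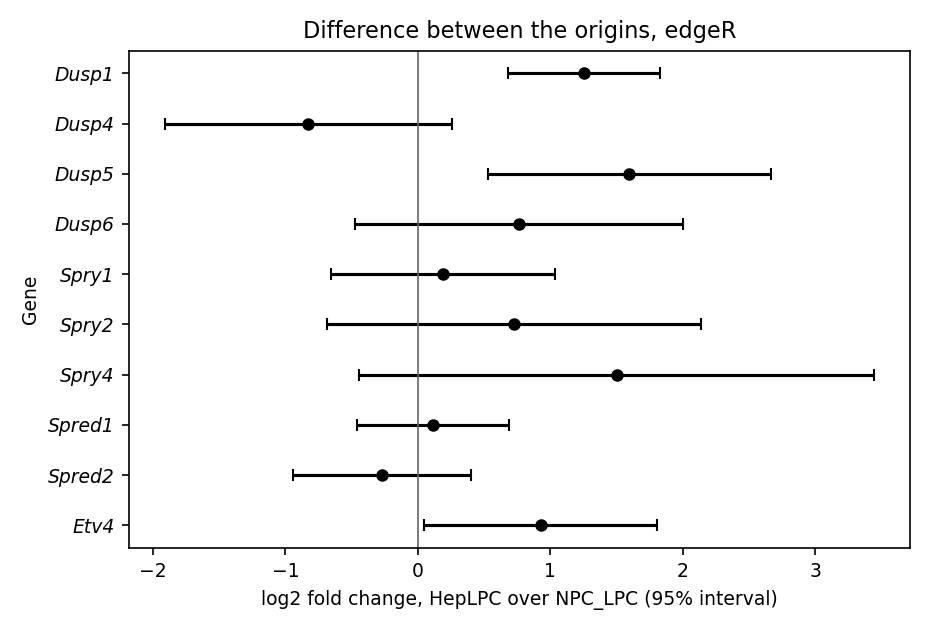
Log2 fold change of HepLPC over NPC_LPC for the 10 genes by edgeR; points are fitted values and bars 95% intervals, with a vertical line at 0. The intervals of Dusp1, Dusp5 and Etv4 lie above 0 before adjustment over all genes, and those of the other 7 genes include it.

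The Sprouty genes encode membrane-associated inhibitors of receptor tyrosine kinase signalling. Spry1 (chromosome 3) was at 27.2 and 26.0 CPM in the HepLPC pair, against 17.7 and 28.9 CPM in the NPC_LPC pair, so that both HepLPC libraries lay between the NPC_LPC ones. Spry2 (chromosome 14) was at 27.3 and 39.1 CPM in the HepLPC pair, against 9.65 and 30.5 CPM in the NPC_LPC pair, again with overlap. Spry4 (chromosome 18) was at 20.3 and 12.7 CPM in the HepLPC pair, against 1.87 and 9.75 CPM in the NPC_LPC pair. Its groups did not overlap, but the NPC_LPC libraries differed 5.23-fold, with 34 and 197 counts, and the SD of the NPC_LPC mean (5.81 ± 5.58 CPM) was nearly as large as the mean.

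All 3 Sprouty genes were lowest in NPC_LPC replicate 1, where they summed to 29.2 CPM beside 69.2 to 77.8 CPM in the other libraries. That library also had the lowest proliferation marker sum, whose part in the Sprouty levels was not tested. The log2 fold changes were 0.19, 0.73 and 1.503 for Spry1, Spry2 and Spry4 (SE 0.34, 0.57 and 0.78), with edgeR adjusted p of 0.781, 0.492 and 0.322. Without NPC_LPC replicate 1 they were -0.10, 0.14 and 0.78, and without NPC_LPC replicate 2 they were 0.58, 1.78 and 3.14, and none passed the test in either setting. The 95% interval for Spry4 ran from -0.44 to 3.45, so these libraries allow both no difference and a large one.

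Spred1 and Spred2 encode membrane proteins that bring neurofibromin to Ras. Spred1 (chromosome 2, 117121071 to 117182279) was at 70.2 and 61.8 CPM in the HepLPC pair, against 64.1 and 58.2 CPM in the NPC_LPC pair. All 4 libraries lay within a narrow range, with a log2 fold change of 0.11 (SE 0.23, edgeR adjusted p = 0.811) and a 95% interval of -0.46 to 0.68. Spred2 (chromosome 11, 19924442 to 20024026) was at 77.9 and 53.2 CPM in the HepLPC pair, against 78.2 and 80.0 CPM in the NPC_LPC pair. Its log2 fold change was -0.27 (SE 0.27, edgeR adjusted p = 0.589, 95% interval -0.94 to 0.40), with HepLPC replicate 2 below the other 3 libraries. Of the 10 genes, Spred1 and Spry1 had the fitted values nearest to 0.

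Etv4 encodes an ETS factor of the PEA3 subfamily that follows FGF and ERK signalling in many tissues (chromosome 11, 101769747 to 101785310). It was at 74.0 and 49.7 CPM in the HepLPC pair, against 24.9 and 40.1 CPM in the NPC_LPC pair. Both HepLPC libraries lay above both NPC_LPC libraries, and the libraries of each origin differed by more than the gap between the groups. The means were 61.9 ± 17.1 and 32.5 ± 10.8 CPM, a ratio of 1.90 (log2 fold change 0.93 with SE 0.36, 95% interval 0.044 to 1.81), with adjusted p of 0.211 by edgeR and 0.130 by DESeq2.

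Levels of different genes were compared per length, first by the authors' deposited FPKM, which corrects fragment counts for the length of the transcript and the size of the library. By mean FPKM over the 4 libraries the order was Dusp1 at 129, Dusp6 at 68.8, Dusp4 at 50.6, Dusp5 at 40.2, Etv4 at 10.5, Spred1 at 8.29, Spry2 at 5.94, Spry1 at 5.85, Spry4 at 1.75 and Spred2 at 1.69. By FPKM the phosphatase genes thus stood above the rest. In every library each of the 4 exceeded Etv4 and the Sprouty and Spred genes by FPKM, which for Dusp5 did not hold on the scale below. Across libraries Dusp5 at its lowest (15.9 FPKM) lay just under Etv4 at its highest (15.998 FPKM). Each neighbouring pair in this order overlapped across the 4 libraries except Spry1 and Spry4, at 4.18 to 6.96 and 0.295 to 3.08 FPKM. The gene in first place was Dusp1 in 3 libraries and Dusp4 in NPC_LPC replicate 1, at 79.5 against 73.9 FPKM.

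Spred2 had a low FPKM for its count. It had 945 to 1617 counts per library but an FPKM of 1.198 to 1.93. Dividing its CPM by its FPKM gives a length of 41370 to 44435 bases, where its longest transcript with a curated RefSeq match in GENCODE M21 has 2852, a ratio of 15.0. For the other 9 genes this ratio was 0.466 (Dusp5) to 2.20 (Spry2), and only 9 of 9035 genes with at least 100 counts in every library had a larger implied length than Spred2. As CPM per kilobase of annotated transcript, a scale chosen after seeing this, Spred2 was at 25.4 and ranked 4 of 10 in place of 10. Dusp1, Dusp6 and Dusp4 kept the first 3 places, at 158, 62.1 and 51.1, Dusp5 moved from 4 to 6 at 18.7, and Spry4 was lowest at 2.35. In NPC_LPC replicate 1 Dusp1 stood first on this scale, at 92.0 against 79.3 for Dusp4. By library Dusp5 ranked 6 and 3 in the HepLPC pair and 7 and 8 in the NPC_LPC pair. It thus did not exceed Etv4 and the Sprouty and Spred genes in every library on this scale. Comparisons of 1 gene between libraries do not use the length.

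**Figure D3:**
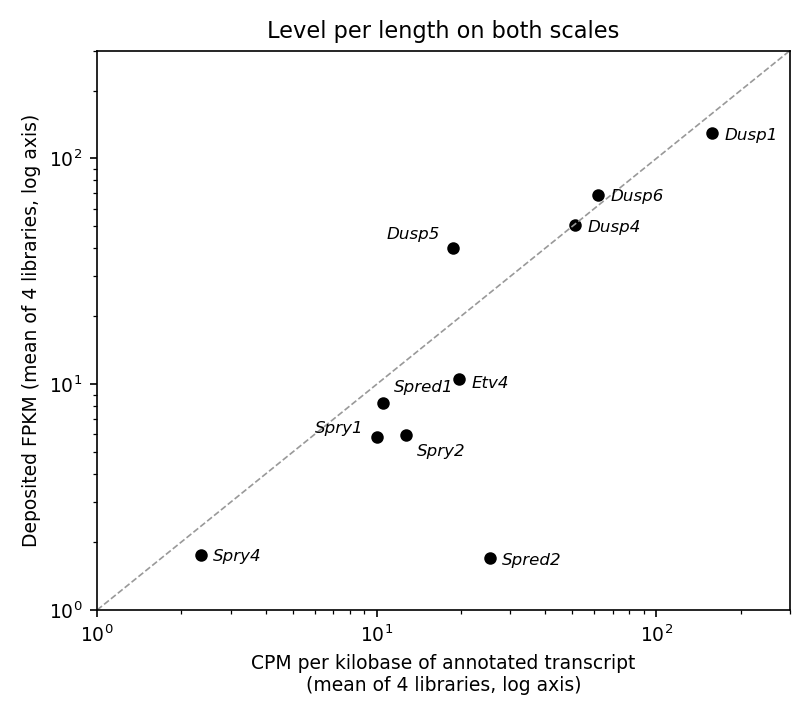
Mean level of each of the 10 genes over the 4 libraries as deposited FPKM against CPM per kilobase of annotated transcript, both on log axes; the dashed line marks equal values. Spred2 lies far below the line, at 1.69 FPKM and 25.4 CPM per kilobase, and Dusp5 lies above it.

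Other feedback regulators of the pathway went both ways by fitted value. Of 12 measured genes in this list 11 were tested, 4 higher and 7 lower in HepLPC by fitted value, and the list's median log2 fold change was -0.56. The edgeR test called 0 of them, with 4 lower and 0 higher at an unadjusted p under 0.05 (11.5% and 10.4% of all genes), and DESeq2 called 2 lower (6.24% of all genes). Il17rd, which encodes the FGF signalling inhibitor Sef, was at 0.778 and 2.70 CPM in the HepLPC pair, against 16.2 and 22.2 CPM in the NPC_LPC pair (log2 fold change -3.46 with SE 0.67, edgeR adjusted p = 0.0828). Etv1, a close relative of Etv4, was at 0.389 and 0.113 CPM in the HepLPC pair, against 5.05 and 1.83 CPM in the NPC_LPC pair (log2 fold change -3.74 with SE 0.97), from 7 and 2 counts in HepLPC. Dusp16, a phosphatase of JNK and p38, was at 74.1 and 57.4 CPM in the HepLPC pair, against 96.3 and 120 CPM in the NPC_LPC pair. The receptor inhibitors Errfi1 and Lrig1, with the highest mean CPM of the list, did not pass the edgeR test. Errfi1 was at 222 and 154 CPM in the HepLPC pair, against 121 and 165 CPM in the NPC_LPC pair, and Lrig1 at 125 and 67.7 against 192 and 177 CPM. Without NPC_LPC replicate 2 the list's median turned to 0.18.

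No gene of the Ras-ERK cascade itself passed the test. Of its 20 genes, all tested, 7 were higher and 13 lower in HepLPC by fitted value, and the list's median log2 fold change was -0.13 in a range of -0.73 to 0.69. The edgeR test and DESeq2 called 0, and 1 was lower at an unadjusted p under 0.05 by edgeR (11.5% of all genes). That gene was Mapk3, which encodes ERK1, at 133 and 162 CPM in the HepLPC pair, against 246 and 246 CPM in the NPC_LPC pair (log2 fold change -0.73 with SE 0.24, edgeR adjusted p = 0.166). Map2k2, the MEK2 gene, was at 55.7 and 82.8 against 41.6 and 44.5 CPM, and Rasa1, a Ras GTPase activator, at 55.8 and 43.4 against 70.3 and 81.0 CPM.

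Among growth factor receptor genes 1 fell in HepLPC, a call made for 0.203% of all genes. Of 12 genes 11 were tested, 4 higher and 7 lower by fitted value, and the list's median log2 fold change was -0.17. Fgfr2 was at 10.3 and 13.4 CPM in the HepLPC pair, against 79.9 and 65.1 CPM in the NPC_LPC pair (log2 fold change -2.61 with SE 0.30, edgeR adjusted p = 0.0436). DESeq2 called 1 receptor higher and 2 lower, beside 5.35% and 6.24% of all genes. Met and Egfr, with the highest mean CPM of the list, did not pass edgeR or DESeq2. Met was at 270 and 166 CPM in the HepLPC pair, against 203 and 278 CPM in the NPC_LPC pair, and Egfr at 99.7 and 108 against 161 and 140 CPM. The call of Fgfr2 was lost without either HepLPC library, where edgeR called 0 genes of any kind, and on all 4 libraries by limma-voom and by limma on log2 FPKM at each of its 3 settings. The list's median turned to 0.085 without HepLPC replicate 2 and to 0.10 without NPC_LPC replicate 2.

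Of 13 growth factor genes 10 were tested, 7 higher and 3 lower in HepLPC by fitted value, and the list's median log2 fold change was 0.61. The edgeR test called 0, with 3 higher at an unadjusted p under 0.05 (10.4% of all genes), and DESeq2 called 2 higher (5.35% of all genes). Fgf1 was at 101 and 51.3 CPM in the HepLPC pair, against 14.4 and 9.01 CPM in the NPC_LPC pair (log2 fold change 2.71 with SE 0.45, edgeR adjusted p = 0.0736). Hbegf, a ligand of the EGF receptor with the highest mean CPM of the list, was at 237 and 200 CPM in the HepLPC pair, against 65.5 and 116 CPM in the NPC_LPC pair (log2 fold change 1.27 with SE 0.34, edgeR adjusted p = 0.123). Tgfa, another such ligand, was at 152 and 93.4 against 67.6 and 77.2 CPM. Areg was at 179 and 102 CPM in the HepLPC pair, against 38.0 and 151 CPM in the NPC_LPC pair, with overlap. Without NPC_LPC replicate 1 the list's median turned to -0.084.

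Other genes read as ERK output, a list chosen with earlier results of these data known, were mostly higher in HepLPC. Of 13 genes, all tested, 12 were higher and 1 lower by fitted value, where 6144 of all 12332 tested genes were higher. The list's median log2 fold change was 1.34, beside 0.74 for the 10 feedback genes. The edgeR test called 0, with 9 higher and 1 lower at an unadjusted p under 0.05 (10.4% and 11.5% of all genes), and DESeq2 called 7 higher and 1 lower (5.35% and 6.24% of all genes). Fosl1, which encodes the AP-1 subunit FRA1, was at 274 and 283 CPM in the HepLPC pair, against 99.3 and 95.1 CPM in the NPC_LPC pair (log2 fold change 1.52 with SE 0.22, edgeR adjusted p = 0.0598). The immediate early gene Egr1 was at 205 and 128 CPM in the HepLPC pair, against 17.1 and 35.5 CPM in the NPC_LPC pair (log2 fold change 2.66 with SE 0.45). Fos was at 24.1 and 82.6 CPM in the HepLPC pair, against 0.823 and 2.72 CPM in the NPC_LPC pair (log2 fold change 4.90 with SE 0.87, edgeR adjusted p = 0.0763). Ccnd1, the cyclin D1 gene, with the highest mean CPM of the list, was at 2790 and 2416 against 1528 and 1440 CPM, and Epha2 at 436 and 505 against 270 and 448 CPM. These genes include immediate early genes that also answer to cell handling, and by fitted value they share their direction with Dusp1. Junb and Ier3 among them, named after their values were seen, overlapped between the origins. Their log2 fold changes were 0.14 (SE 0.48) and 0.41 (SE 0.33). The part of handling in Dusp1 was not tested.

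**Figure D4:**
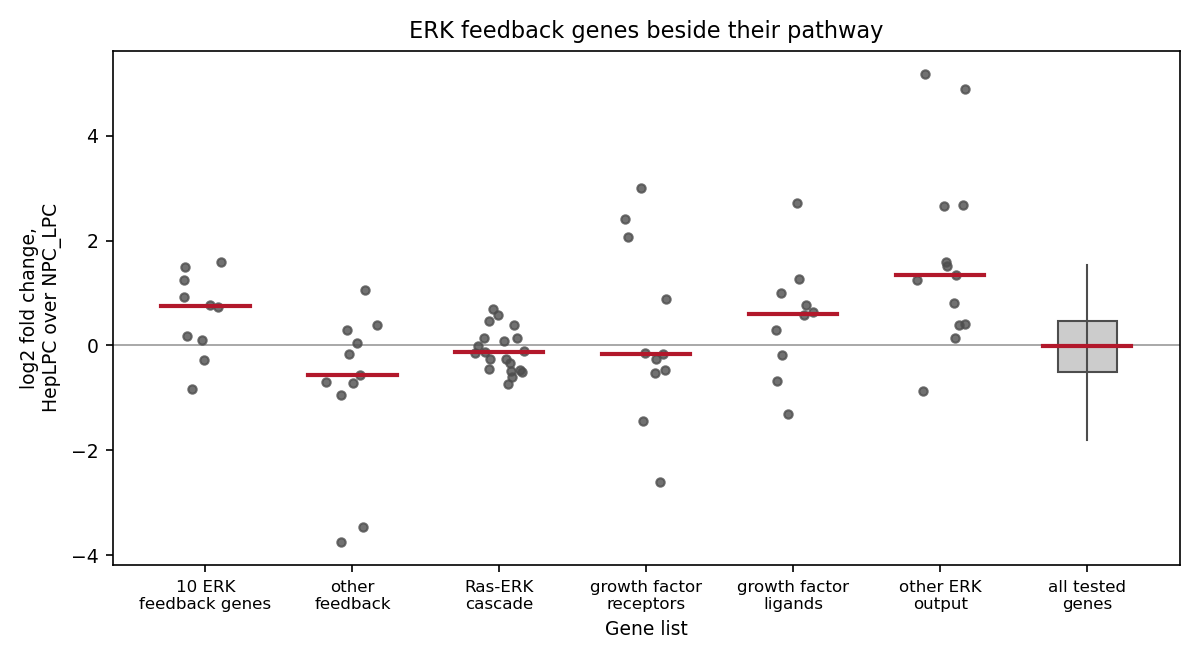
Log2 fold change of HepLPC over NPC_LPC by edgeR for each tested gene of 6 lists (points) with the list median (red line); for all tested genes the box spans the 25th to 75th percentile and the line the 5th to 95th. The 10 feedback genes have a median of 0.74, the other ERK output genes of 1.34 and the cascade genes of -0.13. The lists were chosen with earlier results of these data known.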

How the data were processed

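Values came from 4 deposited tables, 1 per library, of cultured mouse liver progenitor-like cells. The labels' protocols describe stranded, paired-end sequencing of polyadenylated RNA. Trimmomatic, HISAT2, Cufflinks, HTSeq and DESeq and the build mm10 are named in the submitters' processing notes, without versions. The annotation and the strand setting of counting are not given in these sources. Read counts and FPKM were deposited for each gene symbol, per the file headers. Counts were used for all tests, FPKM for levels per length and in alternatives.

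Counts were tested by edgeR 4.0.16 in R 4.3.3, by quasi-likelihood after TMM scaling and filterByExpr, with origin as the only term. P-values are two-sided and Benjamini-Hochberg adjusted over all 12332 tested genes, with a threshold of 0.05. Standard errors come from the F statistic and 95% intervals from its degrees of freedom. The fit was tested on simulated data with the same spread set for all genes. That does not show how the test behaves on these libraries. DESeq2 1.42.0, limma 3.58.1 and other settings were alternatives. No floor was applied, and a gene with no count is given as 0 CPM. For scale, 3 counts equal 0.149 to 0.169 CPM by library. In the titles, replicates of the origins share only a number. Replicate differences in the origins had r = -0.017 over tested genes, a value that cannot show whether same-numbered libraries shared a batch.

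The 10 genes and all lists were chosen with earlier results of these data known. Named from the pathway lists are up to 3 genes past the threshold with the smallest p (otherwise the 3 with the smallest p) and the 2 with the highest mean CPM, except 1 gene that is not reported here. Gene positions are RefSeq's on GRCm38.p6, and transcript lengths are GENCODE M21's.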

Additional observations from a re-analysis of the deposited data

How the results depend on the processing

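The number of the 10 feedback genes called was 0 by edgeR, 1 (Dusp1, adjusted p = 0.0412) with no filter on low counts and 2 by DESeq2. It was 0 in the other 12 alternatives, the replicate block and each left-out library among them (range 0 to 0 over left-out libraries). Over all genes edgeR called 53. The count was 593 with no filter, 140 with at least 5 CPM in 2 libraries, 1521 by DESeq2, 5 by limma-voom, 136 with the replicate block, 111 by limma on log2(FPKM + 1) with a mean FPKM of at least 0.5, 0 by the same without that filter, and 0 to 377 without 1 library. The genes tested numbered 15835 with no filter, 10327 with at least 5 CPM in 2 libraries and 13127 by DESeq2, which called 11.6% of them. They numbered 12332 by limma-voom and with the replicate block. By limma on log2(FPKM + 1) they numbered 11062 with the filter and 15568 without it. For the pathway lists, edgeR without a filter called 1 other feedback gene, 1 ligand and 4 ERK output genes. DESeq2 called 2 other feedback genes, 3 receptors, 2 ligands and 8 ERK output genes. The replicate block called 1 ligand and 1 ERK output gene. Receptor calls were 0 by limma-voom and by limma on log2(FPKM + 1), filtered or not, and on log2(FPKM + 0.1), and limma on log2(FPKM + 1) with the filter called 1 ERK output gene. Without 1 library receptor calls were 0 to 2, ligand calls 0 to 2 and ERK output calls 0 to 1. The replicate block could pair libraries by number only, and changed no call among the 10 genes. The log2 fold change of Spry1 ran from -0.10 (without NPC_LPC replicate 1) to 0.58 over left-out libraries. Over left-out libraries the list medians ran from -0.56 to 0.18 for other feedback (above 0 without NPC_LPC replicate 2), from -0.46 to 0.10 for receptors (0.085 without HepLPC replicate 2 and 0.10 without NPC_LPC replicate 2) and from -0.084 (without NPC_LPC replicate 1) to 0.75 for ligands. The log2 fold change of the other 9 feedback genes kept its sign in all 14 alternatives, from 1.22 to 1.30 for Dusp1, -1.49 to -0.37 for Dusp4, 1.02 to 2.02 for Dusp5, 0.11 to 1.39 for Dusp6, 0.14 to 1.78 for Spry2, 0.78 to 3.14 for Spry4 and 0.63 to 1.31 for Etv4. For Spred1 it ran from 0.030 to 0.20 and for Spred2 from -0.56 to -0.024, so their sign was kept only narrowly. Where a library was left out, the lone library of its origin is assumed to vary like the others. Where a count changed, the cause was not tested. At 34 counts, Spry4 in NPC_LPC replicate 1 had the lowest depth of any of the 10 genes.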

Other observations

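The Dusp family outside the 4 phosphatases described above spanned a wide range. Dusp10, a phosphatase of p38 and JNK, was at 74.1 and 89.7 CPM in the HepLPC pair, against 45.9 and 87.4 CPM in the NPC_LPC pair. Dusp7, an ERK phosphatase related to Dusp6, was at 46.2 and 42.0 CPM in the HepLPC pair, against 34.5 and 64.3 CPM in the NPC_LPC pair, with overlap. Dusp9, the third member of that subgroup, was at 43.2 and 26.1 CPM in the HepLPC pair, against 10.3 and 23.0 CPM in the NPC_LPC pair, without overlap (log2 fold change 1.06 with SE 0.49, edgeR adjusted p = 0.271). Dusp2 was below the edgeR filter, with at most 1.18 CPM in any library, and DESeq2 did not call it (log2 fold change 2.81, adjusted p = 0.405). These genes were named after their values were seen.

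The PEA3 subfamily of ETS genes went both ways by mean. Etv4 was the only one of its 3 genes with a higher mean in HepLPC. Etv5 was at 21.5 and 10.7 CPM in the HepLPC pair, against 15.5 and 32.0 CPM in the NPC_LPC pair, with overlap (log2 fold change -0.56 with SE 0.52, edgeR adjusted p = 0.557), and Etv1 was lower in both HepLPC libraries. Spred3, the third Spred gene, was at 67.0 and 41.1 CPM in the HepLPC pair, against 93.2 and 80.9 CPM in the NPC_LPC pair, without overlap (log2 fold change -0.69 with SE 0.31, edgeR adjusted p = 0.264). The differences between members of a family were not tested.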
